A study of Mus musculus with 6 samples.

Results

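The genes described here encode the nectin-like ligands of the TIGIT receptor group and other inhibitory immune checkpoints. They were chosen by name: Pvr, Pvrl2, Tigit, Cd96, Cd226, Lag3, Havcr2, Btla and Cd200. Of these 9 genes, 8 were read among the 750 endogenous genes of the panel used here, and Cd226 was not analysed here. The 8 comprise 3 ligand genes (Pvr, Pvrl2 and Cd200) and 5 receptor genes (Tigit, Cd96, Lag3, Havcr2 and Btla).

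An inhibitory checkpoint is a receptor on a lymphocyte or myeloid cell that dampens the cell when it meets its ligand on a neighbouring cell. PVR (CD155) and nectin-2 (CD112, encoded by Pvrl2) sit on tumor, epithelial, endothelial and myeloid cells. On T cells and natural killer cells both bind TIGIT, in competition with the activating receptor CD226, and PVR also binds CD96. LAG-3 binds MHC class II, TIM-3 (encoded by Havcr2) binds several ligands including CEACAM1 and HMGB1, BTLA binds HVEM (encoded by Tnfrsf14), and CD200 binds its receptor CD200R1 on myeloid cells. In liver tumors these receptors are studied chiefly on tumor-infiltrating lymphocytes, where their expression is linked to chronic stimulation.

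Total RNA of 6 mouse tumors was counted with NanoString nCounter barcoded probes. In 3 samples the tumor cells, of the BALB/c liver cancer line BNL-MEA, carried a PD-L1 plasmid, and in the other 3 they carried the empty plasmid. Both kinds of cells had been selected as stable clones with G418, and both were injected beneath the liver capsule, in the left lobe, of male BALB/c mice 6 to 7 weeks old, so tumors grew in hosts with their own immune cells. The descriptions of the samples labelled empty plasmid also speak of clones expressing PD-L1, while their titles and treatment labels say empty. The sources used here do not state how many clones each group rests on or whether each sample is a separate mouse. Clone and plasmid therefore cannot be told apart, and p-values cover the spread among these 6 samples alone, which may be technical.

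Values are on the deposited log2 scale, as scaled by the authors, and whole counts were recovered from them. Recovered totals ran from 1324888 to 1364415 counts in the samples labelled PD-L1 and from 1051274 to 1920476 in those labelled empty plasmid. The 8 negative control probes, which match no mouse transcript, gave 3 to 25 counts each. A gene was tested where its mean over the 6 samples reached 4.66, the negative probes' mean plus 2 SD, and 541 genes did. Cd274, the gene for PD-L1, did not check the labels. It read 6.17, 5.36 and 5.87 in PD-L1 replicates 1 to 3, against 6.95, 5.32 and 7.43 in empty plasmid replicates 1 to 3 (adjusted p = 0.557, limma), so the groups are called by their labels. PD-L1 replicate 1 stood apart in the 3 epithelial genes Epcam, Cdh1 and Muc1. Their summed linear level was 3275 there, against 67 and 244 in the other samples labelled PD-L1 and 303 to 368 in those labelled empty plasmid.

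The 3 ligand genes were read well above background in all 6 samples, while the 5 receptor genes lay close to it. Pvr, Pvrl2 and Cd200 gave between 216 and 1562 counts per sample. Tigit, Cd96, Lag3, Havcr2 and Btla gave between 10 and 68. By mean level Cd200, Pvr and Pvrl2 ranked 230, 238 and 262 among 750 genes, and the receptors ranked from 513 (Lag3) to 594 (Cd96). Probes differ in capture efficiency, so these ranks describe signals over background and not molecules per cell. The background limit was passed by 5 of the 8 genes (Pvr, Pvrl2, Cd200, Lag3 and Havcr2), while Tigit, Cd96 and Btla stayed under it.

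**Figure D1:**
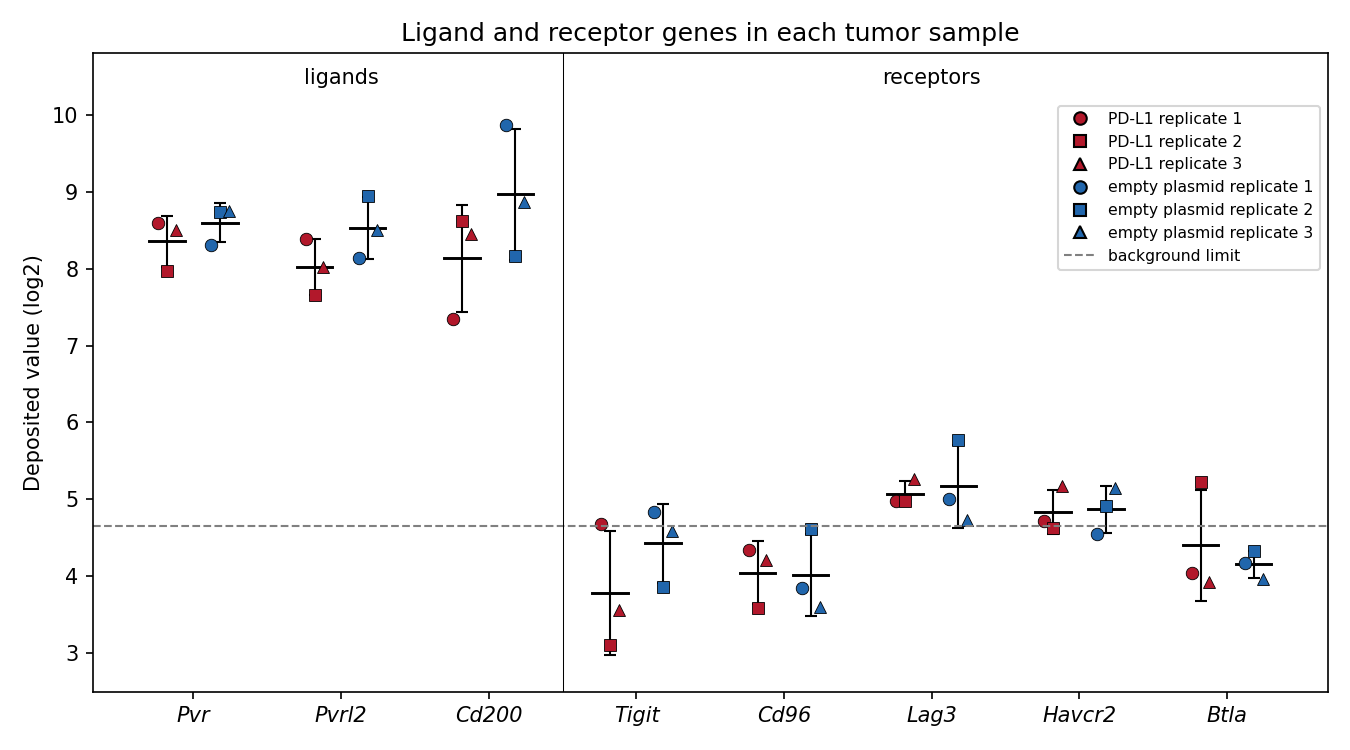
Deposited log2 values of the 3 ligand and 5 receptor genes in each sample, labelled PD-L1 in red at the left of each pair and labelled empty plasmid in blue at the right, with bars for the mean ± SD (n = 3 each) and a dashed line at the background limit of 4.66. The ligands lie between 7.34 and 9.86 in every sample, the receptors between 3.11 and 5.77, and the groups overlap for all 8 genes.

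No member passed the test between the groups. Of the 5 tested genes 0 had an adjusted p under 0.05 in limma, where 0% of all 541 tested genes did, and 0 had an unadjusted p under 0.05, where 17.0% of all tested genes did, 7.21% higher and 9.80% lower in samples labelled PD-L1. The groups overlapped for all 8 genes, while they did not overlap for 18.3% of the 541 tested genes (8.50% higher and 9.80% lower) and for 18.8% of all 750. All 5 tested members had a difference below 0, as had 59.9% of the tested genes, and their median difference was -0.24 beside -0.12 for all tested genes. Without PD-L1 replicate 1 the differences of the 8 members ran from -1.09 for Tigit to 0.42 for Btla, and 0 passed. With 3 against 3 samples an exact permutation test cannot give a p under 0.1.

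Pvr, the ligand of highest affinity for TIGIT, was the steadiest of the 3 ligand genes. It read 8.59, 7.97 and 8.50 in PD-L1 replicates 1 to 3, against 8.30, 8.74 and 8.75 in empty plasmid replicates 1 to 3. PD-L1 replicate 2 was the lowest sample and the other 5 lay within a narrow band. The means were 8.35 ± 0.33 in samples labelled PD-L1 and 8.60 ± 0.25 in those labelled empty plasmid (SD, n = 3 each). The difference was -0.24 ± 0.29 (SE), with a 95% interval from -0.94 to 0.45 (limma adjusted p = 0.692). With 1 sample left out the difference ran from -0.39 (without empty plasmid replicate 1) to -0.05 (without PD-L1 replicate 2).

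Pvrl2, whose current symbol is Nectin2, encodes an adhesion molecule of cell junctions that TIGIT binds more weakly. It read 8.39, 7.66 and 8.02 in PD-L1 replicates 1 to 3, against 8.14, 8.94 and 8.50 in empty plasmid replicates 1 to 3. The highest samples were empty plasmid replicates 2 and 3, but empty plasmid replicate 1 lay below PD-L1 replicate 1. The difference was -0.50 ± 0.33 (SE, n = 3 per group), with a 95% interval from -1.30 to 0.29 (limma adjusted p = 0.489; two-sided exact permutation p = 0.2). With 1 sample left out it ran from -0.70 (without empty plasmid replicate 1) to -0.29 (without empty plasmid replicate 2). The 13 hepatocyte genes measured all had a difference below 0 too, with a mean of 6.50 ± 2.24 in samples labelled PD-L1 and 10.04 ± 2.09 in those labelled empty plasmid (SD, n = 3 each), and their mean was highest, at 12.09, in empty plasmid replicate 2. That was also the highest sample for Pvrl2. In samples labelled empty plasmid the list, at 7.92, 12.09 and 10.11 in replicates 1 to 3, had the same order as Pvrl2. In samples labelled PD-L1 it read 5.64, 4.82 and 9.04 in replicates 1 to 3. There the list was highest in replicate 3, while Pvrl2 was highest in replicate 1. The part of liver tissue in the Pvrl2 values was not tested.

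The Pvr and Pvrl2 profiles lay close together. After centring each gene on its own mean, their log2 values differed by a root mean square of 0.21 over the 6 samples, where the median gene differed from Pvr by 0.54. Pvrl2 was the second nearest of 540 genes to Pvr, after Ikbke, a kinase of innate immune signalling, at 0.20. Havcr2, which lay near background, was nearly as close to Pvr, at 0.22. Pvr varied little, with an SD of 0.30 over the samples, and only 16.5% of tested genes had a smaller one. The measure favours genes that vary little, so this closeness does not show that the 2 genes change together. Pvr was the sixth nearest to Pvrl2, and Stat5b, a cytokine signal transducer, was among the 2 nearest, at 0.18. Within a sample the difference of 2 genes' log2 values does not depend on how the sample was scaled. Pvr minus Pvrl2 stood at 0.20, 0.31 and 0.47 in PD-L1 replicates 1 to 3, against 0.17, -0.21 and 0.25 in empty plasmid replicates 1 to 3. Only empty plasmid replicate 2 had more Pvrl2 signal than Pvr signal, and the groups overlapped.

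Tigit and Cd96, which encode inhibitory receptors of PVR, could barely be told from background. Tigit gave 34, 10 and 14 counts in PD-L1 replicates 1 to 3, against 48, 13 and 46 in empty plasmid replicates 1 to 3. Only PD-L1 replicate 1 and empty plasmid replicates 1 and 3 exceeded the highest negative probe of the same sample. The counting interval alone ran from 4.8 to 18.4 for the 10 counts and from 35.4 to 63.6 for the 48 counts (exact Poisson, 95%), unscaled and for counting error only. On the log2 scale Tigit averaged 3.79 ± 0.80 in samples labelled PD-L1 and 4.43 ± 0.51 in those labelled empty plasmid (SD, n = 3 each), both under the limit of 4.66. The difference was -0.64 (two-sided exact permutation p = 0.3). It was -1.09 without PD-L1 replicate 1 and -0.31 without PD-L1 replicate 2. In limma without the background limit its adjusted p was 0.558, with an interval from -1.85 to 0.56.

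Cd96 gave 27, 14 and 22 counts in PD-L1 replicates 1 to 3, against 24, 22 and 23 in empty plasmid replicates 1 to 3. It exceeded the highest negative probe in 4 of 6 samples, 2 in each group. The log2 means were 4.05 ± 0.40 in samples labelled PD-L1 and 4.02 ± 0.53 in those labelled empty plasmid (SD, n = 3 each), a difference of 0.03 whose sign turned in 4 of the 6 fits that left out a sample. Its interval without the background limit, from -0.95 to 1.01 (limma adjusted p = 0.976), leaves room for a change in either direction.

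Most markers of the cells that carry these receptors had a mean under the background limit. Of 16 T cell markers 12 lay under the limit, among them Cd4, Cd8a and Cd3e, and so did 8 of 13 natural killer markers. The T cell markers Cd3d, Cd3g, Lck and Thy1 passed it, as did 5 natural killer markers. The summed linear level of the T cell markers ran from 365 to 433 in samples labelled PD-L1 and from 398 to 904 in those labelled empty plasmid, and that of the natural killer markers from 327 to 1034 in samples labelled PD-L1 and from 418 to 945 in those labelled empty plasmid. In T cell markers empty plasmid replicate 1 was the highest sample, with a mean of 5.24, and Tigit read 4.84 there. PD-L1 replicate 2 had the lowest mean of the T cell list, 3.80, and of the natural killer list, 3.85, and neither Tigit nor Cd96 exceeded the highest negative probe there. Other samples went differently. Tigit read 4.68 in PD-L1 replicate 1, where the T cell list averaged 4.11. In PD-L1 replicate 3 it read 3.57, where the T cell list averaged 4.42 and the natural killer list was highest, at 5.07. Cd96 was highest, at 4.62, in empty plasmid replicate 2, where the T cell list averaged 4.22. The part of lymphocyte content in the Tigit and Cd96 values was not tested. Of the 4 tested T cell markers 3 had a difference below 0 and 0 passed the test. These 3 include Cd3g, which averaged 4.51 in samples labelled PD-L1, under the limit, and 6.04 in those labelled empty plasmid. Cd3g was thus tested only through samples labelled empty plasmid, and the sign of its difference is no separate result. In bulk tissue, fewer cells of a type and less RNA per cell cannot be told apart.

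The difference between ligand and receptor signals overlapped between the groups. Pvr minus Tigit stood at 3.92, 4.86 and 4.93 in PD-L1 replicates 1 to 3, against 3.46, 4.87 and 4.16 in empty plasmid replicates 1 to 3. Pvrl2 minus Tigit averaged 4.24 ± 0.46 in samples labelled PD-L1 and 4.10 ± 0.91 in those labelled empty plasmid, (SD, n = 3 each). Pvr minus Cd96 averaged 4.30 ± 0.07 in samples labelled PD-L1 and 4.57 ± 0.53 in those labelled empty plasmid (SD, n = 3 each). Since Tigit and Cd96 lay at background in several samples, the size of these differences is a lower bound there.

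Cd200 had the widest range of the 8 members, and the difference of its receptor gene had the opposite sign. Cd200 encodes a surface glycoprotein of endothelial cells, neurons, lymphocytes and some tumors. It read 7.34, 8.62 and 8.45 in PD-L1 replicates 1 to 3, against 9.86, 8.16 and 8.87 in empty plasmid replicates 1 to 3. Empty plasmid replicate 1 was the highest sample, with 1562 counts, and PD-L1 replicate 1 the lowest, with 216 counts. The other 4 samples overlapped between 8.16 and 8.87. The difference was -0.83 ± 0.54 (SE, n = 3 per group), with a 95% interval from -2.13 to 0.46 (limma adjusted p = 0.489; two-sided exact permutation p = 0.4). It came to -0.43 without PD-L1 replicate 1, to -0.38 without empty plasmid replicate 1 and to -1.23 without empty plasmid replicate 2.

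Lck and Cd69 had the profiles nearest to that of Cd200 among 540 tested genes, with root mean square differences of 0.28 and 0.34 over the 6 samples, against a median of 0.87. Lck is the kinase that starts T cell receptor signalling and Cd69 is an early activation marker of lymphocytes. Lck read 4.80, 5.47 and 5.63 in PD-L1 replicates 1 to 3, against 6.89, 5.85 and 6.00 in empty plasmid replicates 1 to 3. Like Cd200 it was highest in empty plasmid replicate 1 and lowest in PD-L1 replicate 1. The endothelial list averaged 7.87 ± 0.23 in samples labelled PD-L1 and 8.45 ± 0.40 in those labelled empty plasmid (SD, n = 3 each), and its summed level ran from 4118 to 9552 in samples labelled PD-L1 and from 6431 to 8380 in those labelled empty plasmid. The part of T cells or endothelium in the Cd200 values was not tested.

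Cd200r1, the inhibitory CD200 receptor of macrophages and other myeloid cells, read 7.07, 8.19 and 7.64 in PD-L1 replicates 1 to 3. It read 6.26, 6.10 and 6.78 in empty plasmid replicates 1 to 3. All samples labelled PD-L1 lay above all samples labelled empty plasmid, as was the case for 8.50% of tested genes. The difference was 1.26 ± 0.39 (SE, n = 3 per group), 2.39-fold, with a 95% interval from 0.32 to 2.19 (unadjusted p = 0.016 and adjusted p = 0.256, limma), so it did not pass. With 1 sample left out the difference ran from 0.98 (without PD-L1 replicate 2) to 1.54 (without PD-L1 replicate 1). Its unadjusted p was 0.0574 without PD-L1 replicate 2 and 0.336 after rescaling to the positive controls. The mean of the macrophage and monocyte list was also higher in all 3 samples labelled PD-L1, at 10.24 to 11.08, against 9.53 to 10.19 in those labelled empty plasmid. Its summed linear level ran from 30269 to 53428 in samples labelled PD-L1 and from 20198 to 30665 in those labelled empty plasmid, which overlap, and 11 of its 12 members, all tested, had a difference above 0. The gene with the profile most like Cd200r1 was Fcgr3, an Fc receptor of macrophages and natural killer cells, at a root mean square difference of 0.11. The part of macrophage content in the Cd200r1 values was not tested.

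Cd200 minus Cd200r1 separated the groups more widely than either gene did. The difference was 0.26, 0.42 and 0.81 in PD-L1 replicates 1 to 3, against 3.61, 2.06 and 2.09 in empty plasmid replicates 1 to 3. A gap of 1.25 lay between the highest sample labelled PD-L1 and the lowest labelled empty plasmid. The means were 0.50 ± 0.28 in samples labelled PD-L1 and 2.59 ± 0.88 in those labelled empty plasmid (SD, n = 3 each), which differ by -2.09. Leaving out any 1 sample gave -2.35 to -1.58. No test was made of this difference. Among the 14 gene pairs examined, the groups were also apart for Lgals3 minus Lag3, by 0.18, and they overlapped for the rest. In both pairs 1 gene, Cd200r1 or Lgals3, separated the groups by itself, as 18.3% of tested genes did in either direction. How often pairs of panel genes separate the groups was not measured, so the gap is not set against such a share.

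**Figure D2:**
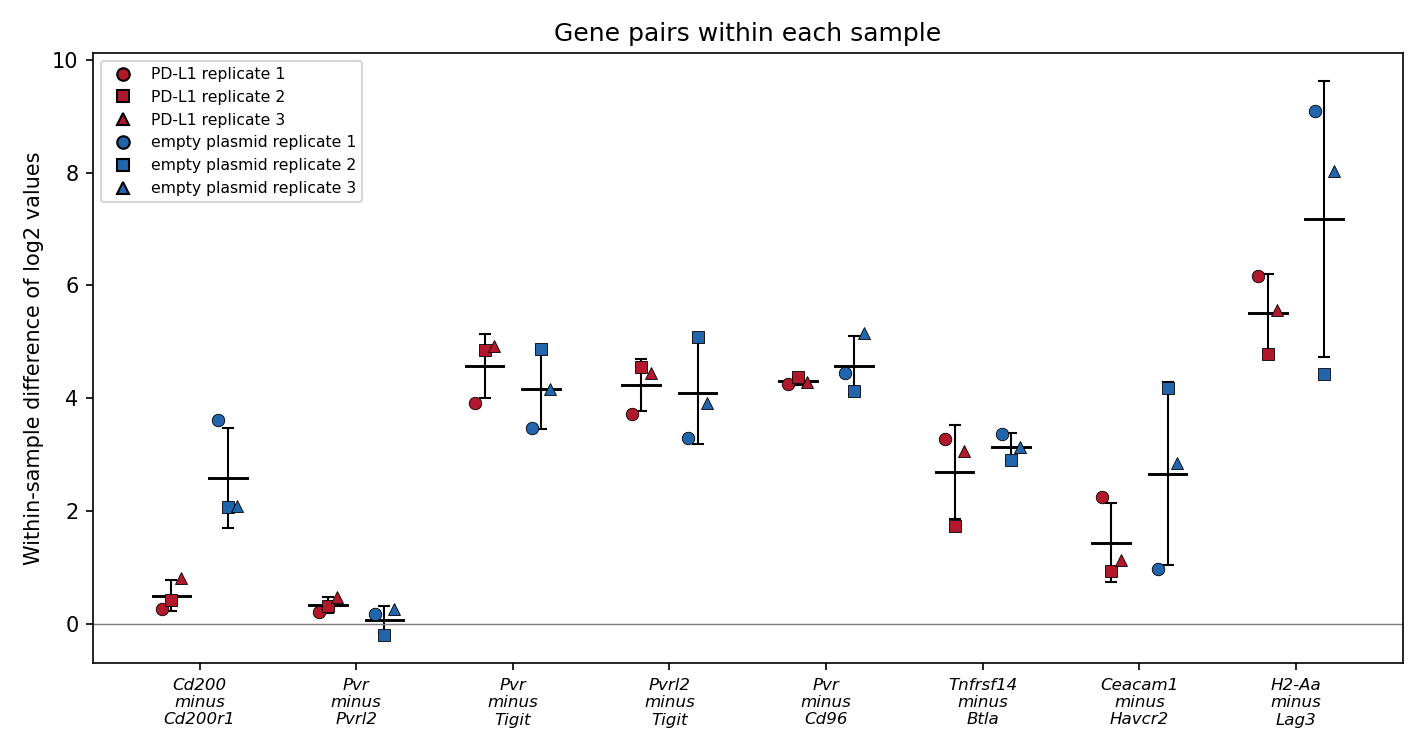
Within-sample differences of log2 values for 8 gene pairs, samples labelled PD-L1 in red at the left and labelled empty plasmid in blue at the right, with bars for the mean ± SD (n = 3 each). Cd200 minus Cd200r1 lies between 0.26 and 0.81 in samples labelled PD-L1 and between 2.06 and 3.61 in those labelled empty plasmid, while the groups overlap for the other pairs drawn.

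Lag3 encodes an inhibitory receptor of activated T cells and natural killer cells. It gave 42, 37 and 46 counts in PD-L1 replicates 1 to 3, against 54, 49 and 51 in empty plasmid replicates 1 to 3, above the highest negative probe in all 6 samples. These counts are unscaled, and the sample totals differ, so they do not compare the groups. The counting intervals of the nearest samples overlapped, at 33.7 to 61.4 for 46 counts and 36.3 to 64.8 for 49 counts (exact Poisson, 95%). The scaled values overlapped between the groups. On the log2 scale Lag3 read 4.98, 4.98 and 5.27 in PD-L1 replicates 1 to 3, and 5.01, 5.77 and 4.73 in empty plasmid replicates 1 to 3. Empty plasmid replicate 2, the highest of them, had the largest scaling factor, 1.1071 per count, and replicate 3, the lowest, had the smallest, 0.5188. The difference was -0.09 ± 0.37 (SE, n = 3 per group), with a 95% interval from -0.97 to 0.79 (limma adjusted p = 0.899), and it turned to 0.06 when samples were centred on their medians. Ifi35 and Ifi27, both interferon-induced genes, had the profiles nearest to Lag3, at root mean square differences of 0.10 and 0.15 against a median of 0.61. Lag3 counts stayed between 37 and 54, while the scaling factors ran from 0.5188 to 1.1071. The part of the scaling in this likeness was not tested.

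The MHC class II genes, ligands of LAG-3, varied far more between samples than Lag3. The class II gene H2-Aa read 11.14, 9.77 and 10.84 in PD-L1 replicates 1 to 3, against 14.10, 10.19 and 12.76 in empty plasmid replicates 1 to 3. Its difference was -1.77 ± 0.97 (SE, n = 3 per group; limma adjusted p = 0.393), and those of H2-Ab1 and H2-Eb1 were -1.61 and -1.63. None of the 3 passed. Without empty plasmid replicate 1 they were -0.89, -0.76 and -0.70, and without empty plasmid replicate 2 they were -2.85, -2.55 and -2.71 (limma adjusted p = 0.233 for each). Lgals3, the gene for galectin-3, a sugar-binding protein reported to bind LAG-3, read 15.37, 15.24 and 15.13 in PD-L1 replicates 1 to 3, against 14.04, 13.62 and 14.41 in empty plasmid replicates 1 to 3. All samples labelled PD-L1 lay above the rest, as was the case for 8.50% of tested genes. The group means differed by 1.22 ± 0.31 (SE; limma unadjusted p = 0.0059, adjusted p = 0.251). Galectin-3 is abundant in macrophages, whose list averaged 10.61 in samples labelled PD-L1 and 9.79 in those labelled empty plasmid. Among samples labelled PD-L1 the list was lowest, at 10.24, in replicate 1, where Lgals3 was highest. In samples labelled empty plasmid the list and Lgals3 had the same order. The part of macrophage content in the Lgals3 values was not tested.

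Havcr2 encodes TIM-3, carried by exhausted T cells and also by macrophages and dendritic cells. It read 4.72, 4.63 and 5.17 in PD-L1 replicates 1 to 3, against 4.55, 4.91 and 5.15 in empty plasmid replicates 1 to 3. The groups overlapped almost completely, and its range of 0.63 over the 6 samples was the narrowest of the 8 members. The difference was -0.03 ± 0.33 (SE, n = 3 per group), with a 95% interval from -0.81 to 0.76 (limma adjusted p = 0.972), and its sign depended on the scaling and on single samples. Mif, a macrophage cytokine gene, and Pvr had the nearest profiles, at 0.20 and 0.22.

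Of the TIM-3 partners, Ceacam1, an adhesion molecule that hepatocytes and epithelia also make, read 6.96, 5.58 and 6.30 in PD-L1 replicates 1 to 3, against 5.50, 9.09 and 7.98 in empty plasmid replicates 1 to 3. Its difference was -1.25 ± 0.92 (SE, n = 3 per group; limma adjusted p = 0.543), with -0.47 without empty plasmid replicate 2 and -2.26 without empty plasmid replicate 1 (limma adjusted p = 0.185). The hepatocyte list read 5.64, 4.82 and 9.04 in PD-L1 replicates 1 to 3, and 7.92, 12.09 and 10.11 in empty plasmid replicates 1 to 3. Ceacam1 and the list both had their highest value in empty plasmid replicate 2 and their next highest in replicate 3. The part of liver tissue in the Ceacam1 values was not tested. Hmgb1, a chromatin protein that cells release when damaged, differed by 0.07 ± 0.32 (limma adjusted p = 0.903).

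Btla encodes a receptor of B cells, T cells and dendritic cells. It gave 22, 44 and 18 counts in PD-L1 replicates 1 to 3, against 30, 18 and 30 in empty plasmid replicates 1 to 3. Only PD-L1 replicate 2, at 5.23 on the log2 scale, passed the background limit. The difference was 0.25 (two-sided exact permutation p = 0.9), and it ran from -0.17 without PD-L1 replicate 2 to 0.49 without PD-L1 replicate 3. That sample also had the highest mean of the B cell list, 4.80 against 3.87 and 3.91 in the other samples labelled PD-L1 and 3.70 to 4.26 in those labelled empty plasmid. Of the 9 B cell markers 7 lay under the background limit. The 2 tested ones went opposite ways in that sample: Cd79b, a part of the B cell receptor, had its highest value there, 6.93, and Blnk, an adaptor of B cell receptor signalling, its lowest, 6.58.

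Tnfrsf14, the gene for the BTLA ligand HVEM, was well measured and steady. It read 7.32, 6.96 and 6.99 in PD-L1 replicates 1 to 3, against 7.54, 7.23 and 7.11 in empty plasmid replicates 1 to 3, a difference of -0.20 ± 0.28 (SE, n = 3 per group; limma adjusted p = 0.746), which ran from -0.32 without PD-L1 replicate 1 to -0.08 without empty plasmid replicate 1. Cd160, a further HVEM receptor of natural killer and T cells, stayed under the background limit, with 12 to 32 counts per sample. Tnfsf14, the cytokine LIGHT that also binds HVEM, read 5.61, 5.90 and 4.79 in PD-L1 replicates 1 to 3, against 4.43, 4.48 and 4.07 in empty plasmid replicates 1 to 3. All 3 samples labelled empty plasmid lay under the background limit of 4.66, so Tnfsf14 was tested only through its values in samples labelled PD-L1. Its difference is against signals near background, and no test of it is given.

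**Figure D3:**
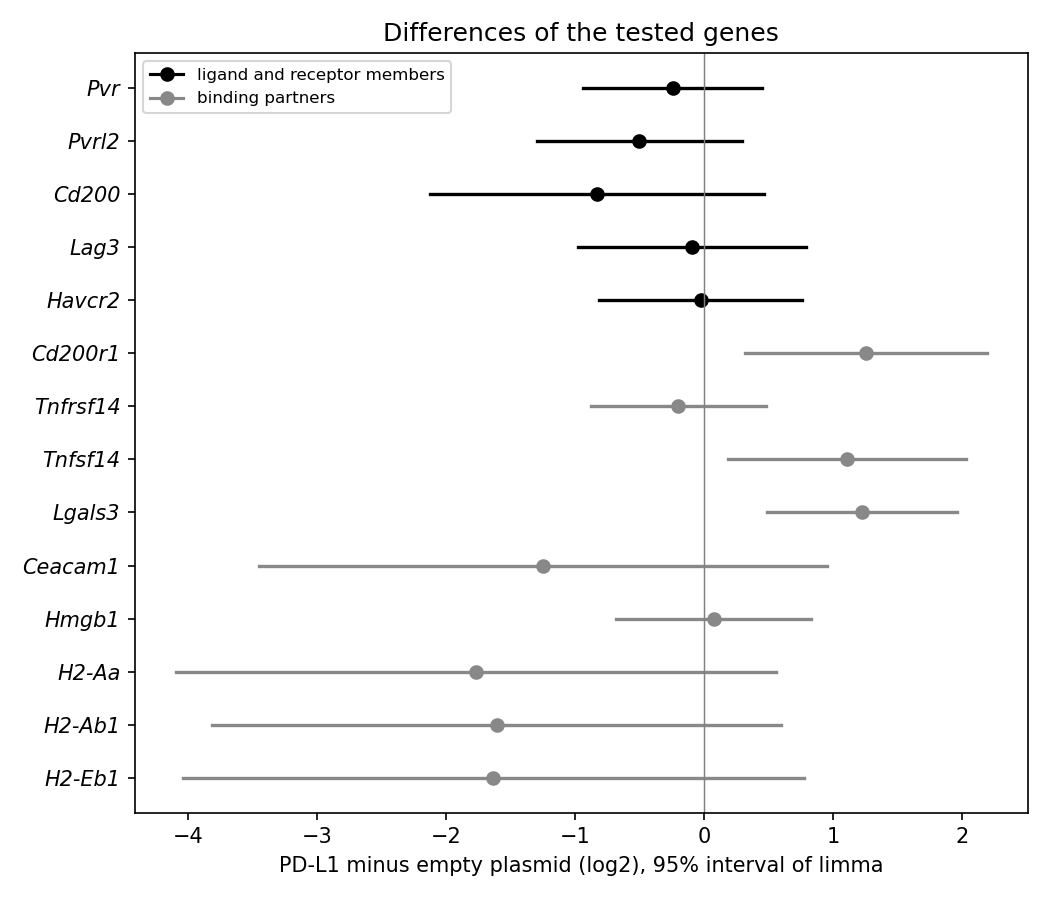
Differences of the 5 tested members (black) and 9 tested binding partners (grey), samples labelled PD-L1 minus those labelled empty plasmid on the log2 scale, with the 95% interval of limma. The intervals of all 5 members include 0, and those of Cd200r1, Lgals3 and Tnfsf14 lie above it, though no adjusted p was under 0.05. Tnfsf14 is drawn against a group under the background limit and was tested only through samples labelled PD-L1, so its interval is not read as a result.

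Among the 10 binding partners measured, 9 were tested. Of these 4 had a difference above 0 and 5 below, with a median of -0.20 beside -0.12 for all tested genes, and 0 passed the test. These counts include Tnfsf14, which was tested only through samples labelled PD-L1. Of the others, Cd200r1 and Lgals3 had an unadjusted p under 0.05, as had 17.0% of all tested genes. Of 15 other checkpoint genes measured, among them Pdcd1, Ctla4, Cd80 and Klrc1, 8 were tested and 0 passed. Their median difference was 0.02, with 5 above 0 and 3 below, and 2 of them, Cd80 and Tnfrsf9, had an unadjusted p under 0.05. The other 7 genes, among them Pdcd1lg2, Ctla4, Klrg1 and Cd244, stayed under the background limit, as Tigit, Cd96 and Btla did. Cd276, the gene for B7-H3, varied less than Pvr within each group, with 8.20 ± 0.12 in samples labelled PD-L1 and 8.16 ± 0.14 in those labelled empty plasmid (SD, n = 3 each).

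**Figure D4:**
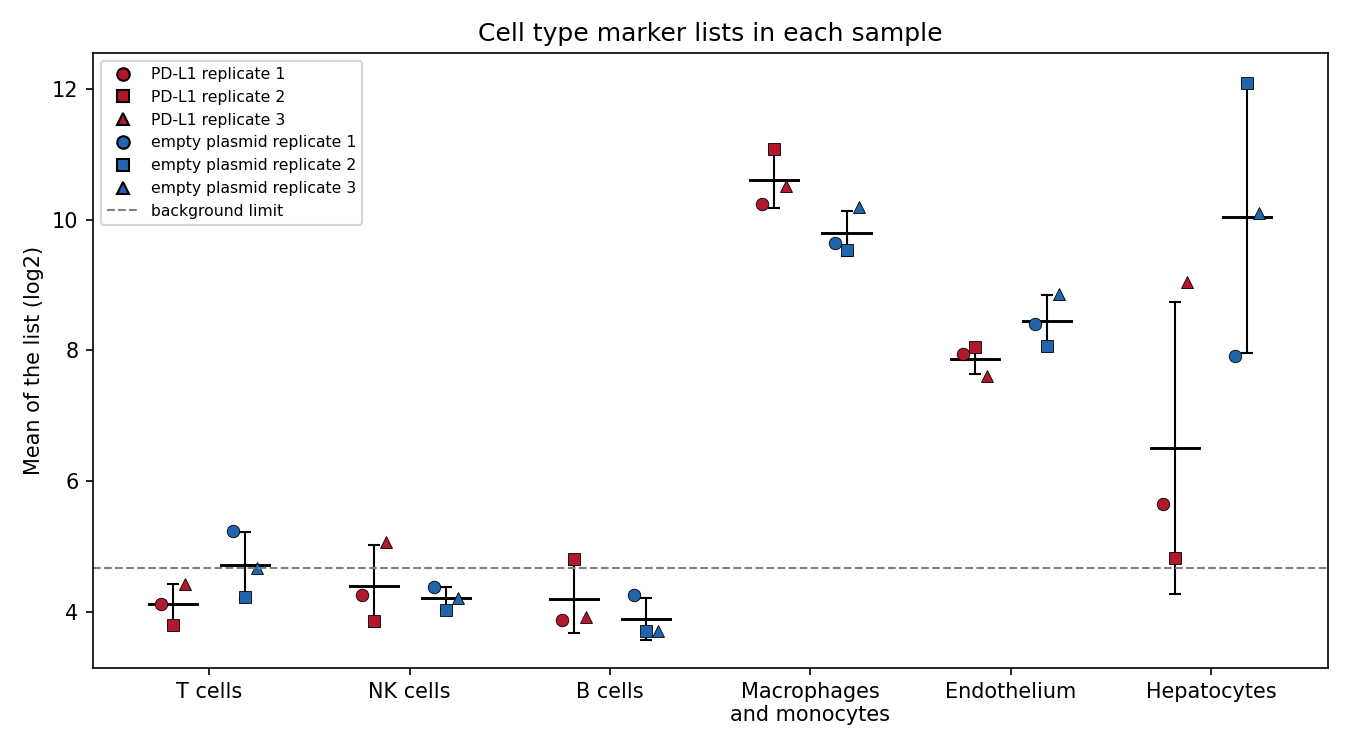
Mean log2 value of 6 cell type marker lists per sample, labelled PD-L1 in red at the left and labelled empty plasmid in blue at the right, with bars for the mean ± SD (n = 3 each) and a dashed line at the background limit of 4.66. Lymphocyte lists lie near the limit, and the hepatocyte list spans 4.82 to 12.09. The macrophage list is higher in all 3 samples labelled PD-L1, but narrowly, at 10.24 in PD-L1 replicate 1 against 10.19 in empty plasmid replicate 3, and its summed linear levels overlap.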

How the data were processed

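Per the labels' protocols, total RNA of tumor tissue was measured by NanoString counting. The authors deposited log2 values. Read from the values, each is the log2 of a whole count times a factor per sample plus 0.158, with all counts whole within 0.02. The basis of the factors and the software are not given in the sources used here. A second deposited table held identical values for 770 genes.

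The 541 genes at or above the background limit (4.66, or 25.3 on the linear scale) were compared with limma 3.58.1 in R 4.3.3 on the values as deposited. The model held the group alone, variances were moderated along a trend with mean level, and p-values were adjusted over the 541 genes by Benjamini-Hochberg, with a threshold of 0.05. Differences are PD-L1 minus empty plasmid. Single values had two-sided exact permutation tests. The fit was tested on simulated data. Members, partners and marker lists were chosen with earlier results of these data known. Named genes are the members, their partners, other checkpoints, and the 2 genes with the smallest root mean square difference from a tested member's centred profile. A gene that this rule names is not reported here. Cd79b, Blnk, the epithelial genes and the nearest gene of Cd200r1 were named after their values were seen. All 8 members matched RefSeq's gene table of assembly GRCm38.p6 by accession, used for names and gene order only. Coordinates are left out because the sources name no build. Alternatives covered the limit, trend, scaling, background subtraction, added constant, limma's voom on recovered counts, the second table, a replicate block and each sample left out. Plots were made in python 3.11.15 (matplotlib 3.10.9).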

Additional observations from a re-analysis of the deposited data

How the results depend on the processing

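Under 18 alternatives, 6 of which left out a sample, the count of members past the test stayed at 0, adjusted or unadjusted. Pvr, Pvrl2, Tigit and Cd200 kept a difference below 0 in all 18, from -0.67 to -0.05 for Pvr and from -1.26 to -0.38 for Cd200. The settings for the limit, the trend, the second table and the replicate block could not alter a gene's difference. They therefore say nothing about its sign. Rescaling to the positive controls moved the median of all tested genes from -0.12 to -0.54, and centring on sample medians moved it to 0.04. The 2 members higher in samples labelled PD-L1 became 0 with the positive controls, 4 with centring, 1 with the negative controls subtracted and 1 to 3 with a sample left out (1 without PD-L1 replicate 3 or empty plasmid replicate 1). Cd96 moved to -0.54 with the negative controls subtracted. Lag3 turned to 0.062 and Havcr2 to 0.13 with centring, and Havcr2 to 0.003 with the reference genes. With a sample left out, Lag3 ran from -0.31 to 0.20, Havcr2 from -0.19 to 0.11 and Hmgb1 from -0.093 to 0.355. Hmgb1 turned to -0.35 with the positive controls. Over all tested genes, the count past the adjusted threshold, 0, became 1 with the reference genes and 29 with the positive controls. That past an unadjusted p of 0.05, 92, became 55 with the positive controls and 38 to 92 with a sample left out, the lowest being 38 without PD-L1 replicate 2 and 53 without empty plasmid replicate 3. The causes were not tested. The replicate block called 0 members and 0 genes, with a lowest adjusted p of 0.202. Same-numbered samples correlated at 0.27, -0.20 and -0.13 in their deviations across genes. With 3 samples per group such values cannot settle whether the numbers pair the samples. With the block the SE of H2-Aa fell from 0.97 to 0.54 (limma unadjusted p = 0.0233, adjusted p = 0.292). Signal over background limits Tigit, Cd96 and Btla, whose 10 to 48 counts overlap the 3 to 25 of the negative probes.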

Other observations

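Among the other checkpoint genes were 4 costimulatory receptors of T cells. Tnfrsf9, the gene for 4-1BB, read 6.69, 6.54 and 7.19 in PD-L1 replicates 1 to 3, against 6.14, 5.77 and 5.47 in empty plasmid replicates 1 to 3. All samples labelled PD-L1 lay above the rest, as was the case for 8.50% of tested genes. The group means differed by 1.02 ± 0.34 (SE, n = 3 per group; limma unadjusted p = 0.0215, adjusted p = 0.256), so Tnfrsf9 did not pass. Icos, a costimulatory receptor of activated T cells, read 3.69, 3.37 and 4.79 in PD-L1 replicates 1 to 3, against 5.45, 4.86 and 4.94 in empty plasmid replicates 1 to 3. The groups did not overlap, as was the case for 18.8% of all 750 genes. The Icos mean of 4.52 lay under the background limit, as did those of Tnfrsf4 (3.34) and Tnfrsf18 (2.54).

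In RefSeq's gene order Btla and Cd200 are neighbours, with 0 protein-coding genes between them, and Cd200r1 lies 7 protein-coding genes from Cd200 on the same chromosome. Pvr and Pvrl2 share a chromosome too, with 6 protein-coding genes between them.

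Dendritic cell markers were sparse. Itgax, Xcr1 and Ccr7, the 3 measured, all lay under the background limit, with summed levels of 28 to 73 in samples labelled PD-L1 and 48 to 83 in those labelled empty plasmid. Of the 4 regulatory T cell markers 3 lay under it, with sums of 52 to 89 in samples labelled PD-L1 and 64 to 85 in those labelled empty plasmid.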
